A study of Mus musculus with 12 samples.

Results

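The potassium channel genes of the mouse were compared across libraries labelled as sorted cortical neurons from adult control, stroke, stroke with GDF10 siRNA and P4 animals. Members were the genes whose symbol begins with Kcn, followed by letters and a closing number, and this gave 91 of the 23253 genes in the count table. A further gene with such a symbol was left out by the rule, which used no measured value. The members were sorted by symbol into 11 role groups. They were 8 Kv1, 2 Kv2, 4 Kv3, 3 Kv4, 5 Kv7, 10 modifier subunits and 8 genes of the EAG, ERG and ELK families. The rest were 8 genes of the calcium- and sodium-activated channel families, 14 inward rectifiers, 14 two-pore-domain channels and 15 accessory subunits. Because groups follow the symbol, a member such as Kcnu1 need not have the property its group is named for.

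The study asked how the growth factor GDF10 relates to axonal sprouting and recovery after stroke, and RNA was sequenced in 12 libraries, 3 in each group. Per the labels, all mice were C57BL/6 and no group carried a named allele or transgene. Adult control mice had no stroke named in their labels. Stroke mice were adults given rose bengal, a light-activated dye, and 15 min of cold light over the exposed skull, which makes a focal lesion 2 mm across. The siRNA group had the same stroke and an siRNA against GDF10, with no dose, route or control siRNA named, and the stroke group has no such control. P4 animals had no stroke named. The labels do not spell out P4, and their growth text calls all mice adult. Neither the time after stroke nor the number of animals behind a library is given, so p-values measure only the spread between these libraries, which may be technical.

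Potassium channels let potassium ions leave or enter a cell along their gradient, and so set its resting potential, end its action potentials and fix how fast it can fire again. Voltage-gated channels open when the membrane is depolarised, inward rectifiers and two-pore-domain channels carry resting currents, and calcium-activated channels couple firing to calcium entry. In the cortex, Kv3 channels are known from fast-spiking neurons, Kv1 channels from axons beside the node of Ranvier, and several inward rectifiers and two-pore-domain channels also from glia.

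All pore-forming subunits share a selectivity filter, a short loop in which a threonine or serine is followed by glycines that line the pore. Coding sequences of the GENCODE M21 transcripts (build GRCm38) were searched in frame, on the coding strand, for 5 codons of this loop. With N for any base, the first codon was ACN for the threonine form and TCN or AGN for the serine form, and the next 4 were NTN, GGN, TNN and GGN. AGN also takes arginine codons. A match was found in 74 of the 76 pore-forming members (97.4%), in 0 of the 15 accessory members and in 452 of 21793 protein-coding genes (2.07%). The threonine form occurred in 63 members and the serine form in 11, of which 7 belonged to the 8 genes of the EAG, ERG and ELK families. Of the 14 two-pore-domain members, 11 held at least 2 matches and the 2 pore-forming members with no match, Kcnk1 and Kcnk7, are of this class. The filters of the pore-forming genes on which the results below turn are printed with the match in capitals and 5 codons on either side, and coordinates are those of the match on GRCm38. All of them lie in coding exons.
Kcnc2 (chr10:112456229-112456243, plus strand): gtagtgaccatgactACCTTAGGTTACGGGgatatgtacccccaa
Kcnh4 (chr11:100750293-100750307, minus strand): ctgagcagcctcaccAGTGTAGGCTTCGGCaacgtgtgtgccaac
Kcnh7 (chr2:62777343-62777357, minus strand): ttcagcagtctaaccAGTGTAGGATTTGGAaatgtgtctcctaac
Kcna1 (chr6:126642228-126642242, minus strand): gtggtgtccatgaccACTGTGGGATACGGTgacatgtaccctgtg
Kcna2 (chr3:107105224-107105238, plus strand): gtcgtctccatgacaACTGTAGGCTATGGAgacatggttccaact
Kcna6 (chr6:126738647-126738661, minus strand): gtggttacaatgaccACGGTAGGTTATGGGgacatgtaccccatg
Kcnj16 (chr11:111024904-111024918, plus strand): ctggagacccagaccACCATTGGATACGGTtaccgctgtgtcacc
Kcnj2 (chr11:111072207-111072221, plus strand): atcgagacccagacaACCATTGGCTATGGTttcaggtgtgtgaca
Kcnk13, first pore (split by an intron on chromosome 12): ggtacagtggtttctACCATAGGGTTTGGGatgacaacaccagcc
Kcnk13, second pore (chr12:100061376-100061390, plus strand): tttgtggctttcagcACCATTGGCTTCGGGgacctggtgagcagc
Kcnma1 (chr14:23528413-23528427, minus strand): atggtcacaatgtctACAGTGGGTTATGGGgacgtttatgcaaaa
Within this set, the filters of Kcnh4 and Kcnh7 begin with a serine codon and the others with a threonine codon.

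Libraries held 10517638 to 48633350 counts, and potassium channel genes took 0.232 to 0.410% of them. Levels are given in CPM, which corrects each count for library size with TMM factors. Of the 91 members, 79 passed the filter on low counts and were tested; the other 12 summed to between 12 and 115 counts over all libraries, with a highest level of 2.85 CPM. The libraries labelled as neurons also held glial transcripts. Markers of oligodendrocytes took 3.38 to 9.00% of counts in adult control, 4.81 to 5.85% in stroke, 5.80 to 9.90% in the siRNA group and 0.0103 to 0.0271% in P4. The 10 pan-neuronal markers took 0.193 to 0.594%, 0.143 to 0.184%, 0.145 to 0.239% and 0.569 to 0.731%. Astrocyte markers took 0.401 to 0.607%, 0.0550 to 0.0842%, 0.0762 to 0.143% and 0.0320 to 0.0563%, in the same order, and no list had a marker at 0 in all libraries. In bulk RNA, fewer cells of a type and less RNA per cell cannot be told apart. Control library 3 stood apart from its group, with a mean correlation of 0.717 with the other controls, and it had the fewest counts of all. The targeted gene, Gdf10, had 0, 5 and 0 counts in the stroke libraries and 8, 7 and 1 in the siRNA libraries (log2 fold change 2.34, SE 1.67, adjusted p = 0.778). At this depth the gene gives no check of the siRNA label. The deposited table's own column names for this group hold GDF10 without the word siRNA, while the sample labels name the siRNA; the group is called by its sample labels throughout. Sample numbers in the column names run from 1 to 6 over adult control and the siRNA group and from 7 to 12 over stroke and P4. A batch that follows them cannot be told apart from the group, except where the siRNA group is set against adult control.

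Divided by exonic length, so that genes can be compared, Kcna1 was the most abundant member in the 3 adult groups. This gene encodes Kv1.1, an axonal channel that opens at low voltage. Its mean was 268 CPM per kb in the controls, 291 CPM per kb after stroke and 347 CPM per kb with siRNA. The next in adult control were Kcnip3, a calcium sensor that binds Kv4 channels (49.9 CPM per kb), Kcna6, which encodes Kv1.6 (40.0), Kcnj16, the inward rectifier Kir5.1 (36.3), Kcnk1, the two-pore-domain channel TWIK1 (35.6), and Kcna2, which encodes Kv1.2 (30.7). Apart from Kcna1, neighbours in this order did not differ beyond the spread of the libraries; Kcnip3, for example, ranged from 28.6 to 89.8 CPM per kb over the controls and Kcna6 from 11.3 to 84.6. In P4 the order began with Kcnv1, a silent modifier subunit (122, from 28.4 to 303 CPM per kb), Kcnip4, another Kv4 partner (44.4), Kcnma1, the BK channel pore (30.2), and Kcnd2, which encodes Kv4.2 (21.1).

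**Figure D1:**
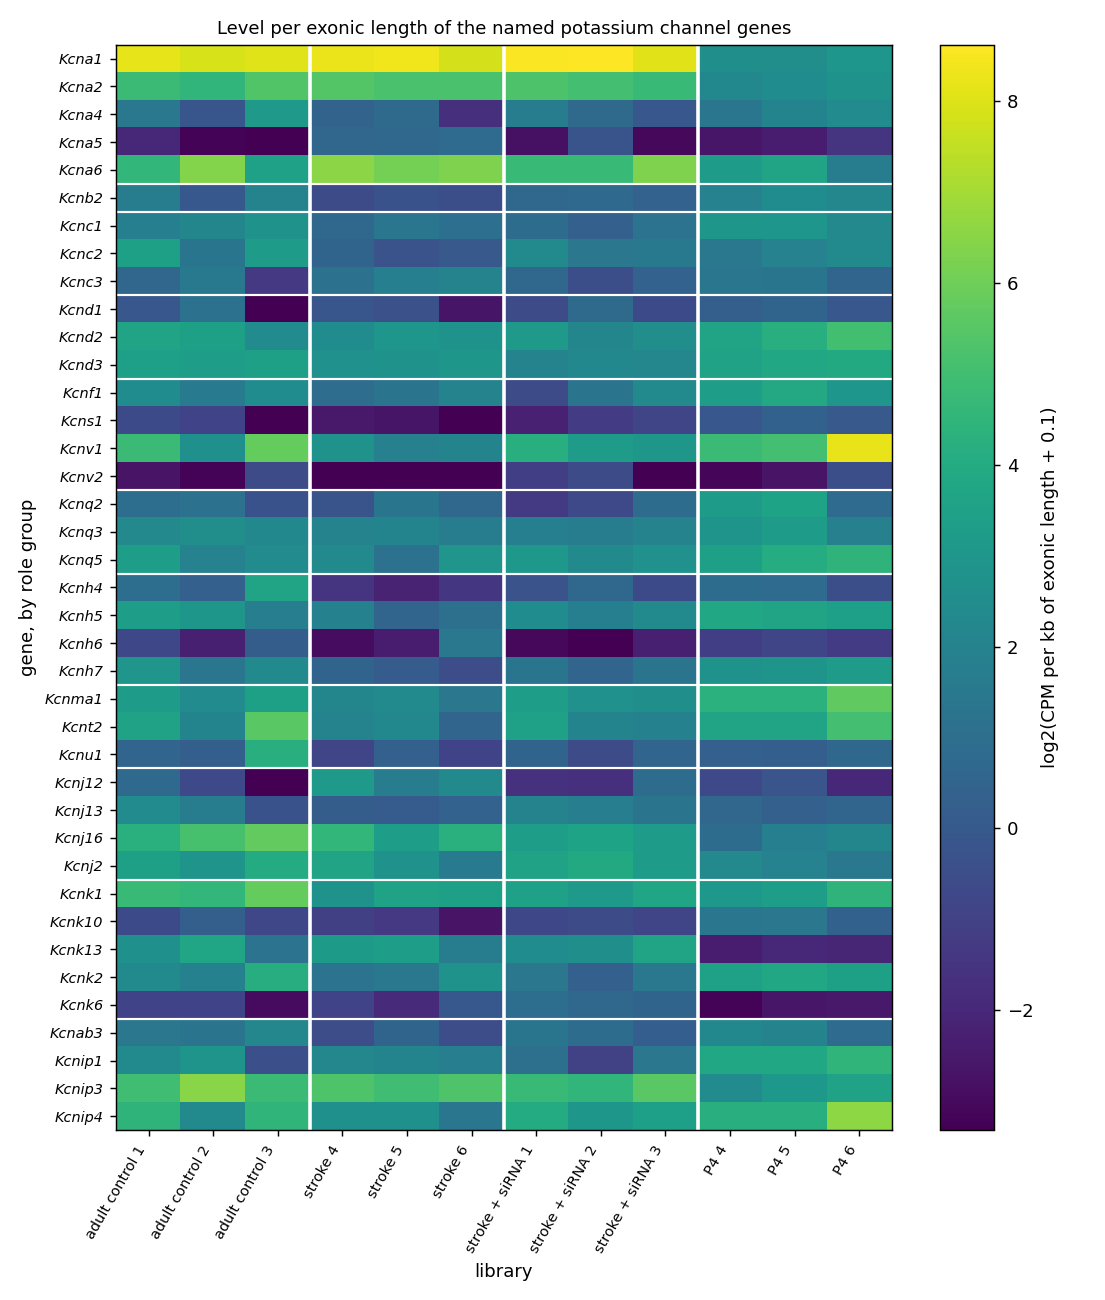
Heat map of 39 potassium channel genes named by rule (one line per gene, by role group) in the 12 libraries (columns); the colour is log2 of CPM per kb of exonic length plus 0.1. Kcna1 is the brightest line in the 9 adult libraries and is dim in the 3 P4 libraries, where its level was 26.1 to 33.8 CPM.

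Stroke against adult control asks which channel genes differ after stroke in libraries that are labelled as neurons and hold glial transcripts too. In this comparison 3 members were lower after stroke and none was higher: Kcnc2, the Kv3.2 channel of fast-spiking neurons, Kcnh7, the ERG-type channel Kv11.3, and Kcnh4, an ELK-type channel. These were 3 of 79 tested members (3.80%), while 0.704% of all tested genes were called in either direction and 0.218% were called lower. A gene was called at an adjusted p under 0.05 in edgeR's quasi-likelihood test, with Benjamini-Hochberg adjustment over 17909 genes. At an unadjusted p under 0.05 there were 21 members. Counts at an unadjusted p, here and below, have no share of all tested genes beside them and are not read as a result. The log2 fold change was below 0 for 60 members and above 0 for 19, and its median was -0.56, beside -0.08 over all tested genes.

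Kcnc2 (chromosome 10, 112269898 to 112466304) was at 68.6, 15.0 and 59.3 CPM in control libraries 1 to 3 and at 8.46, 4.71 and 5.70 CPM in stroke libraries 4 to 6. The log2 fold change was -2.92 (SE 0.58, adjusted p = 0.0339), where the SE is derived from the fold change and the root of the F statistic. Control library 2 was the lowest of the controls, and still lay above every stroke library. Kcnh7 (chromosome 2, 62693410 to 63184287) was at 109, 36.6 and 74.6 CPM in the controls and at 20.0, 15.0 and 9.07 CPM after stroke. Its log2 fold change was -2.32 (SE 0.45, adjusted p = 0.0315). The groups did not overlap, and control library 2 was again the lowest control. Kcnh4 (chromosome 11, 100740378 to 100760115) was at 7.42, 4.57 and 50.1 CPM in the controls and at 1.00, 0.512 and 1.09 CPM after stroke. The log2 fold change came to -4.57 (SE 0.99, adjusted p = 0.0496). The groups did not overlap, but control library 3 was far above the other controls, and without it the fold change was -2.79 and no longer passed (adjusted p = 0.172).

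**Figure D2:**
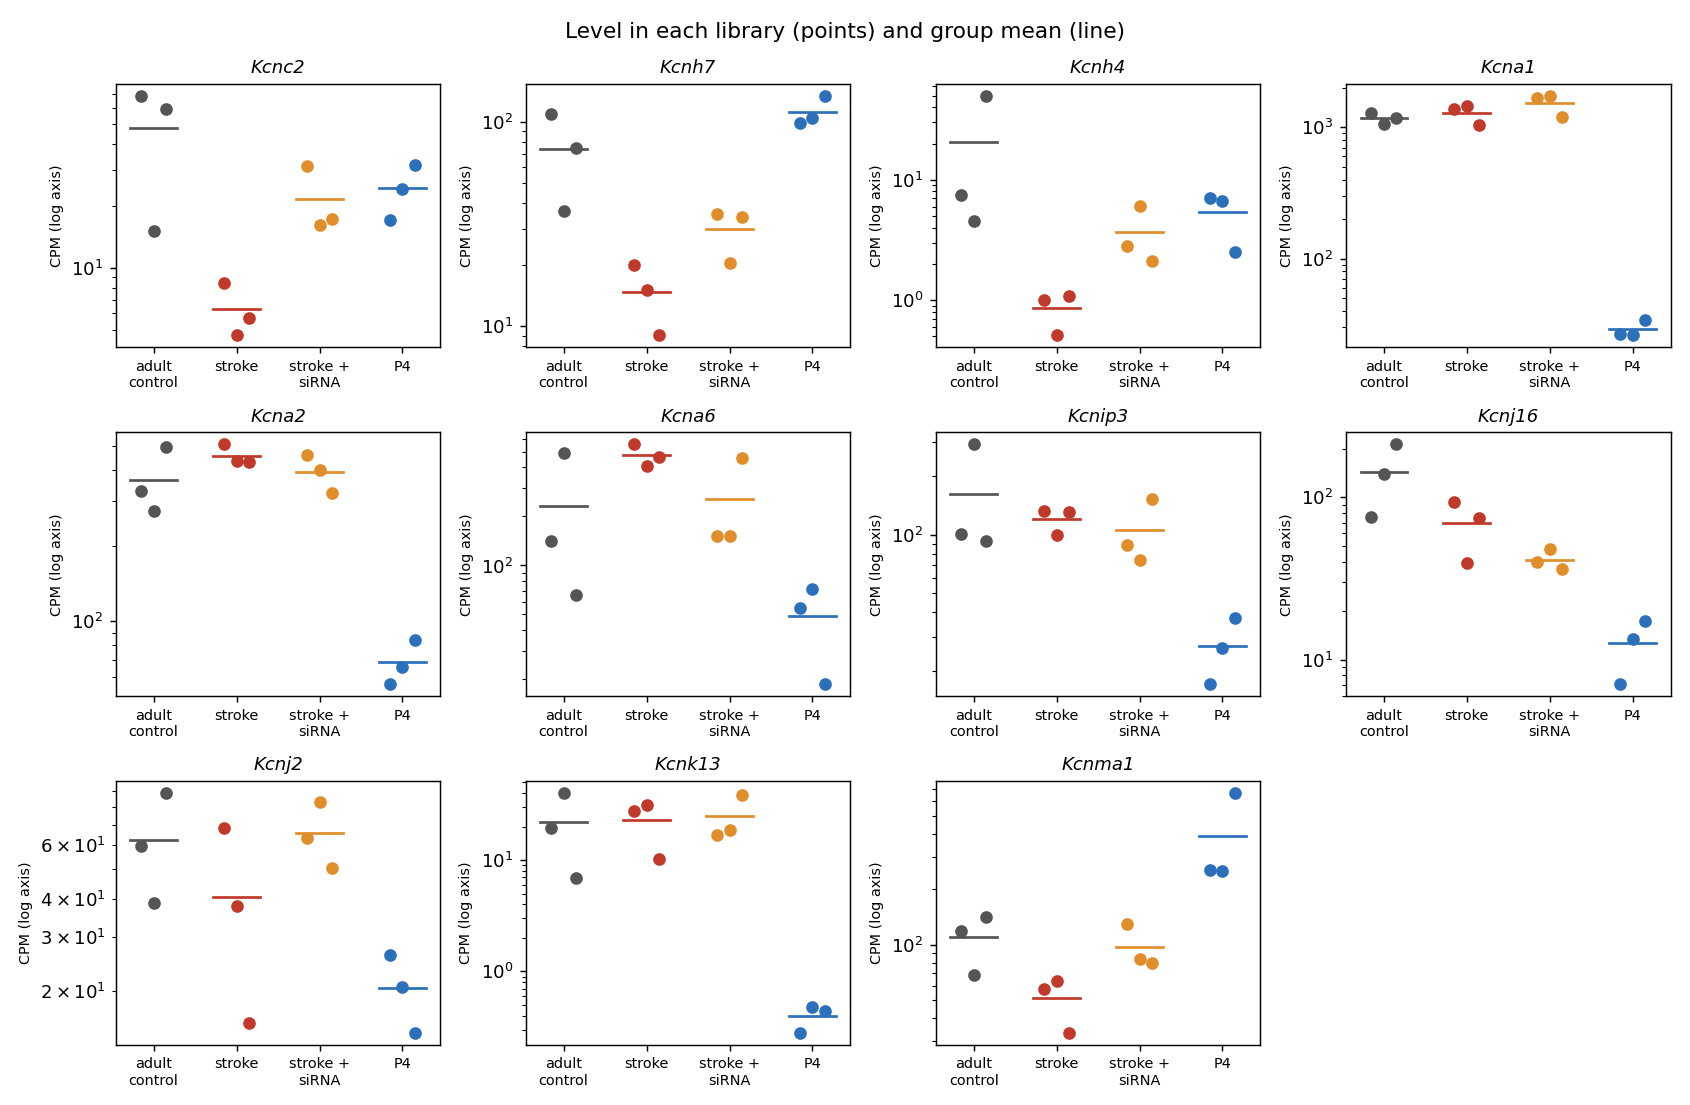
Level (CPM, log axis) of the 11 called potassium channel genes in each library; points are libraries and lines are group means. In the panels of Kcnc2, Kcnh7 and Kcnh4 all stroke points lie below all control points, and in the panel of Kcna1 the P4 points lie far below the rest.

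These calls were sensitive to single libraries. Without control library 1, or without any of stroke libraries 4, 5 and 6, no member was called, and 0.165 to 0.186% of all genes were. Without control library 2 there were 9 members, all lower, and 2.92% of all genes. Adjusted p over the 10 alternative settings ranged from 4.20e-05 to 0.184 for Kcnc2 and from 6.46e-05 to 0.182 for Kcnh7, with all fold changes below 0; both passed in 5 of the 10, and Kcnh4 in 4. DESeq2 called 14 members, 13 lower and 1 higher, where it called 6.29% of all genes it tested. A fit of these 2 groups alone called 0 members and 0.276% of all genes.

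Pan-neuronal markers also had lower values after stroke, with 8 of 10 markers below a fold change of 0 and 0 called. The summed CPM of these markers ranged from 1723 to 5203 in the controls and from 1414 to 2007 after stroke. Per 1000 CPM of these markers, Kcnc2 was at 13.3, 8.72 and 11.4 CPM in the controls and at 4.21, 2.98 and 4.03 CPM after stroke. Kcnh7 was at 21.2, 21.2 and 14.3 CPM in the controls and at 9.96, 9.52 and 6.41 CPM after stroke. Kcnh4 was at 1.44, 2.65 and 9.62 CPM, against 0.499, 0.325 and 0.768 CPM. On this scale, too, stroke and control libraries did not overlap for any of the 3 genes. Markers of inhibitory neurons took 0.0103 to 0.0152% of counts in the controls and 0.00281 to 0.00917% after stroke. Their part in the result was not tested.

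**Figure D3:**
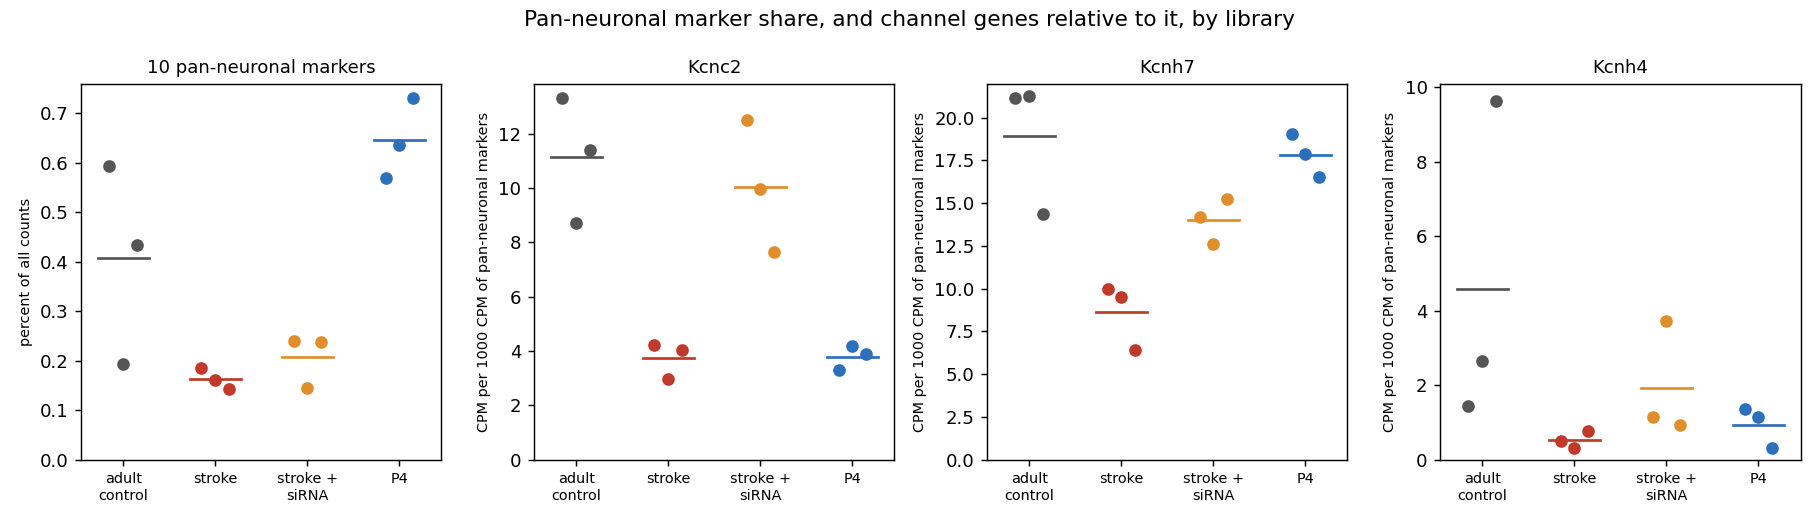
Share of counts on 10 pan-neuronal markers (left panel, percent) and the CPM of Kcnc2, Kcnh7 and Kcnh4 per 1000 CPM of those markers (other panels), by library; lines are group means. Kcnc2 lies at 2.98 to 4.21 in stroke and 3.29 to 4.18 in P4, and at 7.64 to 13.3 in the adult control and siRNA libraries.

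By role, all Kv2, Kv4 and Kv7 members tested had fold changes below 0 after stroke, and none passed the test. Kcnb2, which encodes the delayed rectifier Kv2.2, was at 47.0, 13.5 and 60.1 CPM in the controls and at 9.04, 10.6 and 9.45 CPM after stroke (log2 fold change -2.05, SE 0.48, adjusted p = 0.0725). Its 3 stroke libraries lay close together and below all controls. Kcnc1, the Kv3.1 gene and paralog of Kcnc2, was at 32.4, 41.1 and 65.6 CPM and then at 13.9, 23.6 and 18.2 CPM (log2 fold change -1.32, SE 0.43, adjusted p = 0.171). Its groups did not overlap either, at a smaller difference than in Kcnc2. Per 1000 CPM of pan-neuronal markers, however, the groups of Kcnc1 overlapped. On that scale it was at 6.31, 23.9 and 12.6 CPM in the controls and at 6.93, 14.9 and 12.9 CPM after stroke. Kcnd3, the A-type channel Kv4.3, was at 77.9 to 83.3 CPM in the controls and 49.0 to 59.4 CPM after stroke (log2 fold change -0.60, adjusted p = 0.333).

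In the Kv1 family, 4 of the 6 tested members had a fold change above 0. Kcna1 was at 1295, 1069 and 1183 CPM in the controls and at 1381, 1446 and 1033 CPM after stroke (log2 fold change 0.12, SE 0.27, adjusted p = 0.85), and its groups overlapped. Per 1000 CPM of pan-neuronal markers, its groups did not overlap. On that scale Kcna1 was at 252, 620 and 227 CPM in the controls and at 688, 916 and 731 CPM after stroke. Most of these markers had lower values after stroke, which raises such ratios. Kcna5, the Kv1.5 channel, was at 0.436, 0.0248 and 0 CPM in the controls and at 4.14, 4.23 and 4.94 CPM after stroke (log2 fold change 4.73, SE 1.70, adjusted p = 0.206). All 3 stroke libraries lay above all controls, at a low level. Among the inward rectifiers, Kcnj12, which encodes Kir2.2, had the same pattern, with 4.32, 1.44 and 0 CPM in the controls and 23.9, 8.94 and 13.9 CPM after stroke (log2 fold change 2.99, SE 1.24, adjusted p = 0.262). When 1 library was left out, the log2 fold change ranged from 4.20 to 7.64 for Kcna5 and from 2.44 to 4.32 for Kcnj12. Neither gene passed in any of these fits. DESeq2 called Kcna5 (log2 fold change 4.67, adjusted p = 0.0205) and did not call Kcnj12 (adjusted p = 0.0736). Kcna5 and Kcnj12 were the 2 tested members that did not overlap and were higher. A further 12 tested members did not overlap and were lower. Of all tested genes, 11.0% did not overlap and were higher and 9.00% lower.

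Kcnk1 had the smallest p of the two-pore-domain members, at 61.6, 53.2 and 124 CPM in the controls and at 15.7, 26.1 and 24.9 CPM after stroke (log2 fold change -1.84, SE 0.48, adjusted p = 0.0977). Among the calcium- and sodium-activated channels, Kcnma1 was at 119, 68.3 and 142 CPM in the controls and at 57.3, 63.6 and 33.3 CPM after stroke (log2 fold change -1.09, SE 0.43, adjusted p = 0.246). Both genes had no overlap between the groups in CPM, but both overlapped per 1000 CPM of pan-neuronal markers. On that scale Kcnma1 was at 23.2, 39.7 and 27.2 CPM in the controls and at 28.6, 40.3 and 23.6 CPM after stroke. For Kcnk1, control library 1 had 61.6 CPM on 5142 CPM of markers, and stroke library 6 had 24.9 CPM on 1414 CPM. In 2 genes of the calcium- and sodium-activated role group with large fold changes, control library 3 stood far above the other controls. It also did so for Kcnh4, given above, and for some members not named here. Kcnt2, the sodium-activated Slick channel, was at 69.1, 23.8 and 278 CPM in the controls and at 8.14 to 27.5 CPM after stroke. Kcnu1, a BK-related channel known from sperm, was at 5.08, 4.12 and 64.2 CPM in the controls and at 1.52 to 4.16 CPM after stroke. Neither passed the test (adjusted p = 0.149 and 0.144). Their log2 fold changes of -2.64 and -3.31 became -1.22 and -0.90 without that library. Control library 3 was the highest of the 3 controls in 31 of 79 members (39.2%), beside 36.4% of all tested genes. Kcnv2, a silent subunit that joins Kv2 channels, had 0 counts in all stroke libraries and 35 in the controls, a level at least 12.4-fold lower against 3 counts over the group. Of the 35 counts 26 were in control library 3, and without it the bound was 3.60-fold; without control library 2 it was 25.4-fold. It did not pass the test (adjusted p = 0.22).

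**Figure D4:**
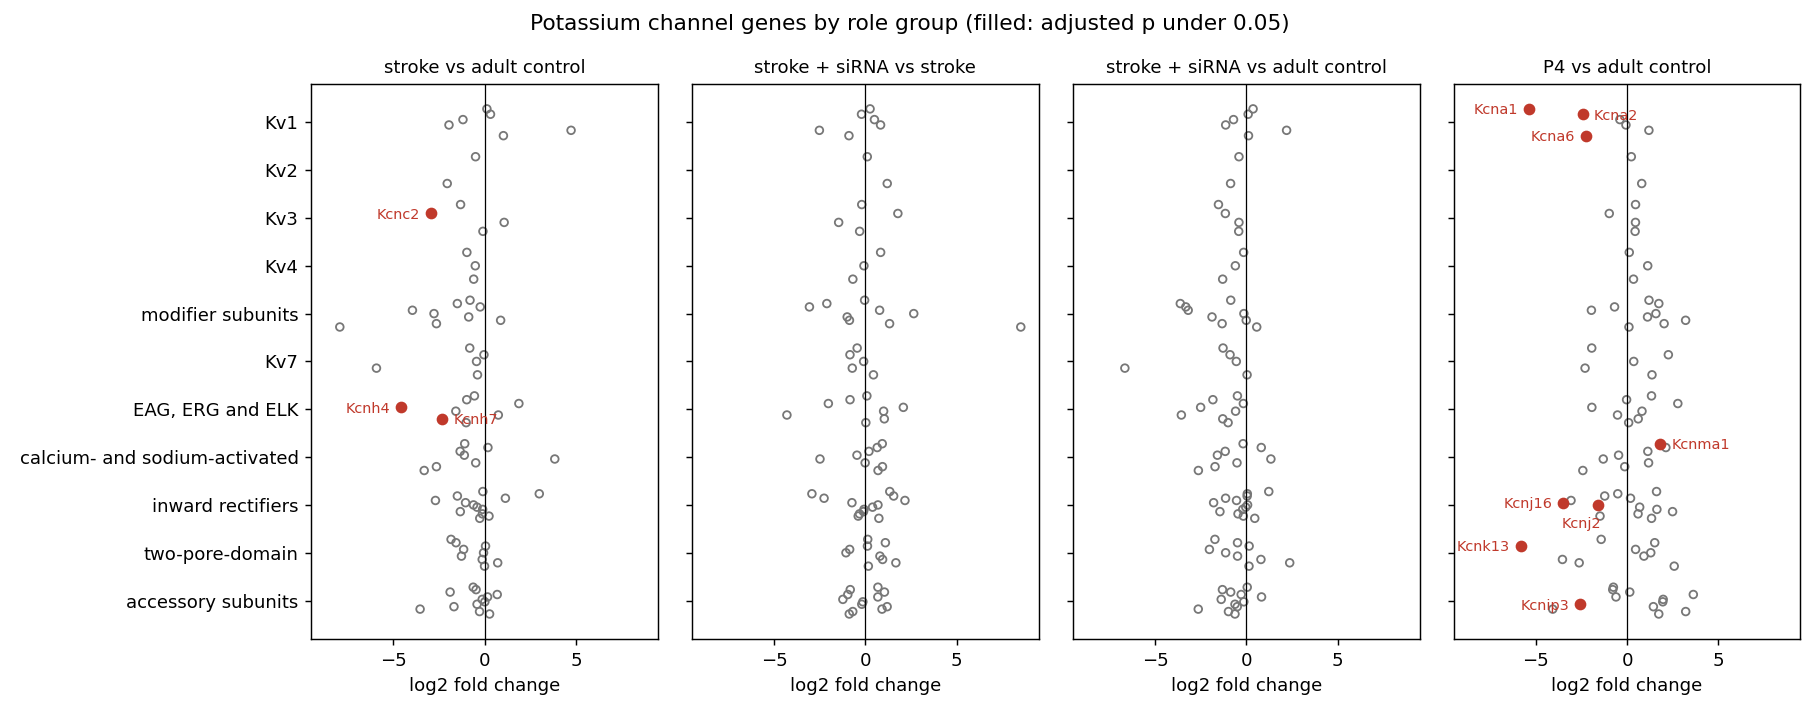
Log2 fold change of the 79 tested potassium channel genes by role group in the 4 comparisons; filled, named points passed at an adjusted p under 0.05. Points lie mostly left of 0 in stroke vs adult control (60 of 79) and in siRNA vs adult control (59 of 79), on both sides in siRNA vs stroke (40 above 0), and mostly right of 0 in P4 vs adult control (47 of 79).

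The siRNA group against stroke asks what differs when GDF10 is targeted in the stroke animals. No member was called in edgeR's test; 8 had an unadjusted p under 0.05, and DESeq2 called 0, with 12 at an unadjusted p under 0.05. Of all tested genes, edgeR called 0.00558%, and DESeq2 called 0.903% of all genes it tested. Fold changes were above 0 for 40 members and below 0 for 39, with a median of 0.02 beside 0.04 over all tested genes. The groups did not overlap for 17 tested members, 12 higher and 5 lower in the siRNA group, where 15.9% of all tested genes did not overlap (7.77% higher, 8.11% lower).

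The 3 genes that were lower after stroke had higher values in the siRNA group than in stroke, and none of the differences passed. These comparisons share the stroke libraries. Kcnc2 was at 31.2, 16.2 and 17.3 CPM in siRNA libraries 1 to 3, all above the highest stroke library at 8.46 CPM (log2 fold change 1.78, SE 0.56, adjusted p = 0.555). Kcnh7 was at 35.5, 20.4 and 34.5 CPM, with the lowest just above the highest stroke library at 20.0 CPM (log2 fold change 1.03, SE 0.44, adjusted p = 0.648). Kcnh4 was at 2.85, 6.02 and 2.11 CPM, above the highest stroke library at 1.09 CPM (log2 fold change 2.08, SE 0.90, adjusted p = 0.651). Per 1000 CPM of pan-neuronal markers, Kcnc2 was at 12.5, 9.98 and 7.64 CPM in the siRNA libraries, a range that overlaps the controls and lies above stroke. Inhibitory neuron markers took 0.00213 to 0.00497% of counts in the siRNA group, no higher than in stroke, and microglia markers took 0.111 to 0.209%, above their 0.0251 to 0.0822% in stroke. Their part in these values was not tested.

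Other members lay on either side of their stroke level, and none passed. Kcnb2 was at 22.8, 24.4 and 19.3 CPM, above all stroke libraries (log2 fold change 1.19, adjusted p = 0.627). Kcnma1 was at 129, 84.1 and 79.3 CPM, also above all stroke libraries (log2 fold change 0.92, adjusted p = 0.676). Per 1000 CPM of pan-neuronal markers, Kcnma1 was at 51.6, 51.9 and 35.0 CPM, which overlapped the 23.6 to 40.3 CPM in stroke. Kcna5 was at 0.124, 2.14 and 0.0578 CPM, below all stroke libraries (log2 fold change -2.52, adjusted p = 0.752). Kcnj12 was at 0.619, 0.579 and 4.85 CPM, likewise below them (log2 fold change -2.93, adjusted p = 0.643). When 1 library was left out, the fold change ranged from -5.60 to -1.97 for Kcna5 and from -4.70 to -2.465 for Kcnj12. Kcnd3 lay below all stroke libraries, at 30.1, 35.1 and 33.9 CPM (log2 fold change -0.69, SE 0.29, adjusted p = 0.649). Kcnv2 had 81 counts in the siRNA libraries and 0 in stroke, at least 31.2-fold higher, with none of the counts in library 3 (adjusted p = 0.594). The bound was 15.5-fold without siRNA library 2 and 63.5-fold without siRNA library 3.

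The siRNA group against adult control also gave no called member in edgeR's test, while 0.117% of all tested genes were called (0.0838% higher, 0.0335% lower); 13 members had an unadjusted p under 0.05. DESeq2 called 5, all lower, among them Kcnc1, Kcnd3, Kcnj16 and Kcnk1, where it called 1.67% of all genes it tested. Fold changes were below 0 for 59 members and above 0 for 20, with a median of -0.54 beside -0.02 over all tested genes. Kcnd3 was at 81.4, 77.9 and 83.3 CPM in the controls and had the smallest SE of these 4 (log2 fold change -1.29, SE 0.30, adjusted p = 0.151 in edgeR). Kcnc1 was at 16.7, 10.8 and 20.9 CPM in the siRNA libraries, below all controls (log2 fold change -1.52, SE 0.43, adjusted p = 0.299). Kcnj16 was at 39.9, 48.0 and 36.4 CPM against 75.5, 140 and 212 CPM in the controls (log2 fold change -1.78, SE 0.46, adjusted p = 0.267). For these 3 genes the libraries of both groups lay apart, as they did for 8 further tested members. In 10 tested members in all the siRNA group was lower, and in 1 it was higher, beside 4.47% and 6.35% of all tested genes (10.8% in either direction). The higher one was Kcnk6, the two-pore-domain channel TWIK2, at 7.61, 6.31 and 5.43 CPM against 1.78, 1.74 and 0.114 CPM (log2 fold change 2.38, SE 1.13, adjusted p = 0.605). Per 1000 CPM of pan-neuronal markers, Kcnd3, Kcnc1 and Kcnj16 all overlapped between the groups. For Kcnd3, control library 1 had 81.4 CPM on 5142 CPM of markers, and siRNA library 2 had 35.1 CPM on 1619 CPM. Kcnj16 was then at 15.9, 29.6 and 16.1 CPM with siRNA and at 14.7, 81.5 and 40.8 CPM in the controls. Of 8 astrocyte markers, 7 had a fold change below 0 here and 1 was called lower. Their part in these values was not tested.

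P4 against adult control compares the 2 groups with no stroke named in their labels. Here 7 members were lower in P4: Kcna1, Kcna2 and Kcna6 of the Kv1 family, the Kv4 partner Kcnip3, the inward rectifiers Kcnj16 and Kcnj2, and the two-pore-domain channel Kcnk13. Kcnma1, the BK channel pore, was higher. These were 8 of the 79 tested members, while 16.8% of all tested genes were called, 10.4% lower and 6.32% higher, and 24 members had an unadjusted p under 0.05. The fold change was above 0 for 47 members and below 0 for 32, with a median of 0.37 beside -0.16 over all tested genes.

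Kcna1 (chromosome 6, 126636463 to 126645801) was at 26.7, 26.1 and 33.8 CPM in P4 libraries 4 to 6, against 1069 CPM or more in every adult control. Its log2 fold change was -5.36 (SE 0.32, adjusted p = 9.31e-08). Kcna2 (chromosome 3, 107090883 to 107115005) was at 331, 275 and 492 CPM in the controls and at 56.2, 65.6 and 83.8 CPM in P4 (log2 fold change -2.42, SE 0.31, adjusted p = 7.45e-05). In both genes the groups were far apart. Kcna6 (chromosome 6, 126708328 to 126740834, with a gap of 62.5 kb to Kcna1) was at 141, 494 and 65.7 CPM in the controls and at 55.0, 72.1 and 18.7 CPM in P4 (log2 fold change -2.26, SE 0.68, adjusted p = 0.0319). Its groups overlapped between control library 3 and P4 library 5, and without control library 2 the fold change was -1.07 (adjusted p = 0.215). It did not pass without P4 library 4 or 6 either. The other 3 tested Kv1 members did not pass; Kcna4, which encodes the A-type channel Kv1.4, was at 12.6, 3.85 and 42.4 CPM in the controls and 11.8, 19.4 and 25.2 CPM in P4.

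Kcnip3 (chromosome 2, 127456498 to 127522094) was at 101, 290 and 92.4 CPM in the controls and at 17.2, 26.2 and 37.6 CPM in P4 (log2 fold change -2.58, SE 0.49, adjusted p = 0.00179). The other 2 Kv4 partners among the named genes were not lower. Kcnip1 was at 12.8, 17.5 and 1.60 CPM and then at 35.8, 35.8 and 55.1 CPM (log2 fold change 1.98, adjusted p = 0.0899), with all P4 libraries above all controls. Kcnip4 was at 69.5, 16.4 and 72.1 CPM and then at 59.9, 58.1 and 312 CPM, and its groups overlapped.

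The neighbouring inward rectifier genes Kcnj16 and Kcnj2 lie 38.2 kb apart on chromosome 11. Kcnj16 (110968033 to 111027968), which forms channels with other Kir subunits, was at 7.08, 13.5 and 17.2 CPM in P4, below all controls (log2 fold change -3.51, SE 0.50, adjusted p = 0.000169). Kcnj2 (111066164 to 111076825), the Kir2.1 gene, was at 59.4, 38.8 and 88.5 CPM in the controls and at 26.3, 20.6 and 14.6 CPM in P4 (log2 fold change -1.60, SE 0.51, adjusted p = 0.0422). Its groups did not overlap, but its call held in 4 of 10 alternatives; without control library 3 the fold change was -1.25 (adjusted p = 0.115). It was also lost without control library 1 or without any of the P4 libraries.

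Kcnk13 (chromosome 12, 99963149 to 100062682), the two-pore-domain channel THIK1, which is known from microglia, was at 19.6, 39.9 and 6.96 CPM in the controls and at 0.281, 0.476 and 0.444 CPM in P4. Its log2 fold change was -5.79 (SE 0.79, adjusted p = 0.000125), the largest of any tested member in this comparison, and its P4 values all lay under 1 CPM. Kcnma1 (chromosome 14, 23292288 to 24005110) was at 119, 68.3 and 142 CPM in the controls and at 254, 252 and 664 CPM in P4 (log2 fold change 1.83, SE 0.44, adjusted p = 0.00996). All P4 libraries were above all controls, with P4 library 6 the highest. Of the BK accessory subunits, Kcnmb2 and Kcnmb4 were also above all controls in P4, at 18.2, 14.5 and 11.6 CPM and at 23.2, 19.7 and 17.9 CPM, without passing (adjusted p = 0.0999 and 0.318). Kcnmb1 had the opposite sign, at 1.59, 0.0745 and 7.87 CPM in the controls and 0.0562, 0.139 and 0.380 CPM in P4 (log2 fold change -4.07, adjusted p = 0.239), and Kcnmb3 had too few counts to be tested. Kcnc2 and Kcnh7 were not called in this comparison: Kcnc2 was at 17.0, 24.3 and 31.6 CPM in P4 (log2 fold change -0.97, adjusted p = 0.262) and Kcnh7 at 98.4, 104 and 134 CPM (log2 fold change 0.61, adjusted p = 0.385).

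Glial markers were lower in P4 together with these genes. All 9 oligodendrocyte markers were called lower, with a median log2 fold change of -8.60, as were 7 of 8 microglia markers and 5 of 8 astrocyte markers. Microglia markers took 0.0595 to 0.0817% of counts in the controls and 0.00204 to 0.00343% in P4. Of the pan-neuronal markers, 5 of 10 were called higher and 0 lower. The part of these markers in the channel differences was not tested. Per 1000 CPM of pan-neuronal markers, Kcna1 was at 252, 620 and 227 CPM in the controls and at 5.16, 4.49 and 4.17 CPM in P4. In the same scale Kcna2 was at 64.3, 159 and 94.7 CPM and then at 11.3 CPM or less. The markers themselves were higher in P4, at 5178 to 8123 summed CPM, so these ratios widen a difference that the levels already show. The groups did not overlap in 20 tested members that were higher and 7 that were lower in P4, beside 16.1% and 16.0% of all tested genes.

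Partners of these channels were counted from a list of 28 genes, of which 27 were tested. The list holds auxiliary subunits, scaffolds that place channels in the axon, and the related HCN pacemaker channels. No partner was called in the 3 comparisons that involve stroke. Of all tested genes, 0.704% were called in stroke against control, 0.00558% in siRNA against stroke and 0.117% in siRNA against control. In the same order, partners had median log2 fold changes of -0.70, 0.11 and -0.32, beside -0.08, 0.04 and -0.02 over all tested genes. In P4 against adult control 5 of the 27 tested partners were called higher and 3 lower, beside 6.32% and 10.4% of all tested genes. The partners' median was 0.77, beside -0.16 over all tested genes. Dlg1, a membrane scaffold, was at 349 ± 31.6 CPM (SD, n = 3) in the controls and 56.7 ± 11.5 CPM in P4 (log2 fold change -2.62, adjusted p = 1.57e-05 in edgeR). Its relative Dlg2, the scaffold PSD-93 found at axonal Kv1 clusters, was at 422 ± 144 CPM and 1207 ± 170 CPM (log2 fold change 1.52, adjusted p = 0.00397). Cntnap2, the adhesion protein Caspr2 that holds Kv1 channels beside the node, was at 33.6 ± 15.4 CPM and 159 ± 48.4 CPM (log2 fold change 2.24, adjusted p = 0.0161). Cntnap1, the paranodal protein Caspr, was at 20.9 ± 10.5 CPM and 2.77 ± 1.24 CPM (log2 fold change -2.92, adjusted p = 0.0143). Within the Kv1 complex, called genes moved in both directions: the pores Kcna1 and Kcna2 were lower while Dlg2 and Cntnap2 were higher. The other called partners were Hcn2, which was lower, and Hcn4, Lrrc55 and Nedd4l, which were higher.

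In the authors' deposited table, 9 members had a false discovery rate under 0.05 in stroke against control, all lower, and they include the 3 called here. There 3.02% of all genes passed. The authors' deposited table had 0 such members for siRNA against stroke, where 0.159% of all genes passed. For siRNA against control the authors' deposited table had 2, both lower, with Kcnj16 among them, where 0.839% of all genes passed. For P4 against adult control the authors' deposited table had 6 higher and 8 lower members, where 15.4% of all genes passed, and these include the 8 called here.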

How the data were processed

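Per the labels' protocols, RNA came from a Zymo RNA-Microprep preparation, was amplified by the Ovation v2 system, and gave paired reads of 69 bp. CASAVA 1.8.2, edgeR and the build mm10 are named per the submitters' processing notes. Aligner, counter, annotation and strandedness are not stated in these sources. Raw read counts per gene, as deposited by the authors, were the values analysed. The authors also deposited log2 fold changes, p-values and false discovery rates for pairs of groups, which are quoted only where named. A further 30 columns of per-library values were not used. One P4 column, that of library 4, bears the name P3 and was assigned through its number.

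Genes were kept with filterByExpr by group (17909 genes), scaled with TMM factors and fitted over all 12 libraries with edgeR 4.0.16 (quasi-likelihood) in R 4.3.3, 1 mean per group. Calls used a Benjamini-Hochberg adjusted p under 0.05. The method was tested on simulated data. Alternatives were DESeq2 1.42.0, RLE size factors, no filter, a fit of the 2 groups alone, leaving out each library, and a replicate block. Members and lists were chosen with earlier results of these data known. Genes named were those called, and in each role group the 2 with the smallest p in stroke against control and in siRNA against stroke and the 2 with the highest level; Kcnmb2 and Kcnmb4 were named after their values were seen, as were Kcnmb1 and Kcnmb3. Bounds for a gene at 0 counts without 1 library were added after seeing the data. Some members that the rule takes are not reported here by name. Gene positions are RefSeq's on GRCm38 (mm10), found for 89 members by Entrez ID. Reads of close paralogs or overlapping transcripts cannot be assigned with certainty without the counting settings.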

Additional observations from a re-analysis of the deposited data

How the results depend on the processing

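Of 11 called fold changes of named genes, none reversed over 110 alternatives; 83 kept their side of the threshold and 27 no longer passed. Of 38 fold changes that were not called, none reversed over 375 alternatives and 13 of these passed. In stroke against control the number of called members went from 3 to 14 with DESeq2 (6.29% of all genes) and 0 with only these 2 groups, and ranged from 0 to 9 when 1 library was left out. The median log2 fold change of members there went from -0.56 to -0.77 with DESeq2, and ranged from -0.80 to -0.57 without 1 library. The median of all tested genes moved from -0.08 to -0.19 with RLE size factors and -0.28 with DESeq2. In siRNA against stroke the members' median ranged from -0.29 to 0.30 without 1 library, and in siRNA against control from -0.76 to -0.43. DESeq2 called 5 members (1.67% of all genes) in siRNA against control, where edgeR called 0. In P4 against control the number called went from 8 to 21 with DESeq2 (20.8% of all genes) and 5 with only these 2 groups (10.12%), and ranged from 6 to 10 without 1 library. Kcna1, Kcna2, Kcnip3, Kcnj16 and Kcnk13 passed in 10 of 10 alternatives.

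With the replicate number as a block in siRNA against control, 0 members were called, as without the block in the same 2 groups, and the median was -0.52. Same-numbered libraries of these 2 groups did not deviate together (correlations 0.0642, -0.191 and -0.336). So few values cannot show whether the libraries were handled in pairs. Depth left 12 members with too few counts to be tested.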
